A study of Saccharomyces cerevisiae with 8 samples.

Results

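The mitochondrial ribosomal protein genes of *Saccharomyces cerevisiae* were compared between yeast grown with gentamicin and yeast grown without it. Members were the genes with a probe set annotated to that gene alone and a current symbol of the MRPL, MRPS, MRP or RSM series (*MRP8*, which is not a ribosomal protein, left out), together with *IMG1*, *IMG2*, *YML6*, *MNP1*, *NAM9*, *SWS2*, *PET123*, *MRX14* and *RML2*. This gave 75 of the 5656 genes with such a probe set, 44 of the large and 31 of the small subunit, and all 75 genes of these names in the gene table had one. Names defined the members, not measured values, but earlier results of these data were known when the members were chosen.

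Total RNA of 1 strain, given by the number 4073 with no genotype or mating type, was hybridised in 1 colour to 8 Affymetrix yeast arrays. Of these, 4 were controls (controls 1 to 4) grown overnight and then to mid-log phase in YPD, a rich glucose medium, without gentamicin. The other 4 (gentamicin 5 to 8) came from cells already acclimated to gentamicin and kept in it throughout, at 500 µg/ml per the sample labels. The description of the series has mg/ml with that number, so the unit is open. Nothing says whether the 4 samples of a group were separate cultures, so the tests measure the spread between these samples, which may be technical.

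Mitochondria make a handful of proteins of the respiratory chain on their own ribosomes, which descend from those of bacteria. In yeast nearly all proteins of this ribosome are encoded in the nucleus, made in the cytosol and imported, and they join ribosomal RNAs transcribed in the mitochondrion. Some are homologs of bacterial ribosomal proteins and others are found in mitochondria only. Gentamicin, an aminoglycoside, is known in bacteria for binding the ribosomal RNA of the small subunit at the site where codons are read. The large subunit joins amino acids and carries the exit tunnel of the new protein, which is why the subunits are described apart here.

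Values are MAS5 signals in arbitrary units, scaled on each array to a common mean, so signals of different genes are not compared. The median signal of an array was 381 to 398 in controls and 321 to 338 with gentamicin, and across genes the correlation of log2 signals was 0.955 to 0.992 within groups and 0.908 to 0.954 between them. All 4 alpha-cell markers were bright in controls (*STE3*, the a-factor receptor, 2258 ± 267, SD, n = 4) and fell with gentamicin. Of 6 a-cell markers only *MFA1*, an a-factor gene, was bright enough to be tested (727 ± 89.7), and it fell too, while *STE2*, the alpha-factor receptor, was at 42.7 ± 12.3. The part of these shifts in the results below was not tested. Of the 75 members, 68 were bright enough to be tested, 42 of the large and 26 of the small subunit. A gene counts as called at an adjusted p under 0.05 in the fit over 4524 genes (limma, Benjamini-Hochberg adjustment).

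With gentamicin, 27 of the 68 tested mitochondrial ribosomal protein transcripts fell and 41 were not called. The 27 are 39.7% of the members, against a background of 31.3% of all tested genes called lower. With the scaling as deposited none of the 68 was called higher, against 15.5% of all tested genes. Under the 3 other scalings given below, the share of members lower was 16.2% (quantile normalization), 14.7% (medians of the tested genes aligned) and 2.94% (medians of all probe sets aligned), each under that of all genes. By subunit these shares were 21.4%, 19.0% and 4.76% in the large and 7.69%, 7.69% and 0% in the small. Those of all genes were 19.8%, 17.7% and 12.0%. With the medians of all probe sets aligned, 2 members were called higher, against 30.5% of all genes. The median log2 difference of the members, gentamicin minus control, was -0.29, and that of all tested genes was -0.12. In total RNA, fewer transcripts per cell cannot be told apart from a smaller share of cells that hold them.

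The members lay close together. The quartiles of their log2 differences were -0.37 and -0.13, while those of all tested genes were -0.37 and 0.12. On the measured scale 65 of the 68 differences were below 0, against 2863 of all 4524 tested genes. Of the 68, 53 were below the median of all genes. The 27 called members fell between 1.18-fold and 1.58-fold, with a median of 1.29-fold, and the median over all 1414 genes called lower was 1.38-fold. Only *MRPL10* was both called and lower by more than 1.5-fold, 1 of 68 members against 10.4% of all tested genes.

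In the large subunit 19 of 42 fell, or 45.2%. In the small subunit 8 of 26 fell, or 30.8%, which is at the background of 31.3%. The median log2 difference was -0.30 for the large and -0.26 for the small subunit, 0.17 and 0.13 below all tested genes. Without gentamicin 5 the median minus that of all genes went from -0.173 to -0.126 in the large subunit. In the small subunit it went from -0.134 to -0.082. The gentamicin arrays all lay below the control arrays for 15 large-subunit and 11 small-subunit members, 26 of 68 together, against 29.6% of all tested genes. For none did they all lie above, against 15.2%. The difference between the subunits was not tested, since the members were chosen with results known.

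**Figure D1:**
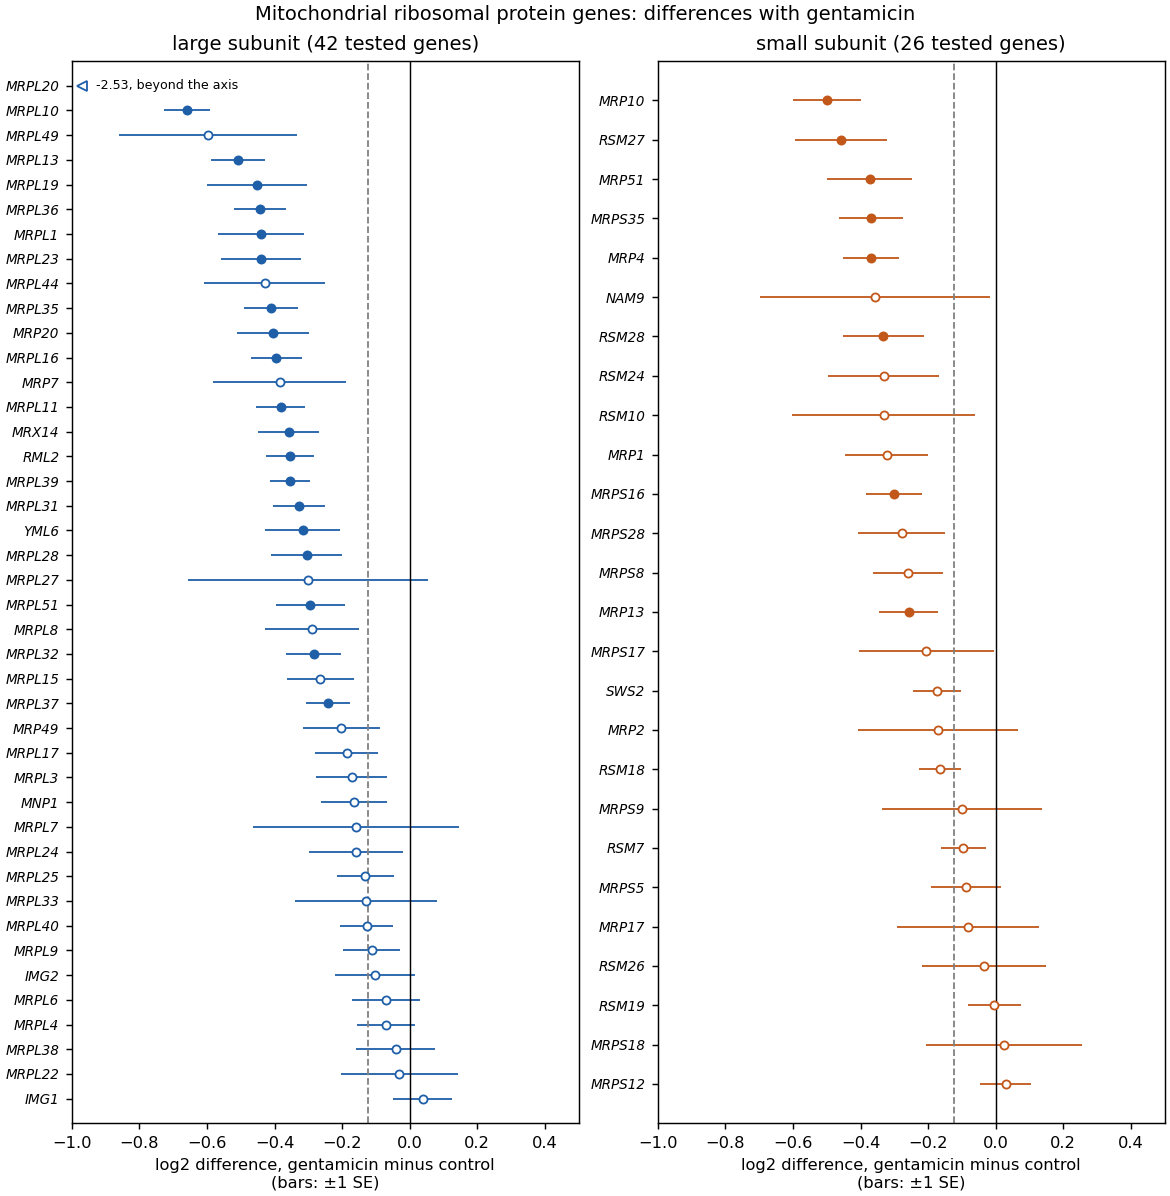
Log2 difference, gentamicin minus control, of each tested member (points, bars ±1 SE, n = 4 arrays a group), the large subunit on the left and the small on the right. Filled points are called lower, open points are not called, the dashed line is the median of all tested genes (-0.12), and *MRPL20* lies beyond the axis at -2.53. Nearly all points lie left of 0 and none of those to the right is called. Of all 4524 tested genes, 2863 had differences below 0.

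Array by array, the large subunit was lower in every gentamicin sample. Relative to each gene's control mean, its median log2 signal was -0.008, -0.031, 0.073 and 0.039 on controls 1 to 4 and -0.31, -0.22, -0.26 and -0.30 on gentamicin 5 to 8. The small subunit gave -0.068, 0.018, 0.079 and 0.050 on the controls and -0.30, -0.17, -0.12 and -0.16 with gentamicin. All tested genes gave between -0.011 and 0.035 on the controls and between -0.13 and -0.093 with gentamicin. The small-subunit median minus that of all genes was thus -0.17 on gentamicin 5 and -0.061 to -0.024 on the other 3. These 3 lie inside the control range of -0.083 to 0.044, but the lower end of that range is control 1 alone. The other controls gave 0.029, 0.044 and 0.036, above every gentamicin array. For the large subunit the median minus that of all genes was -0.19 to -0.11 on all 4 gentamicin arrays, below its control range of -0.023 to 0.038.

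**Figure D2:**
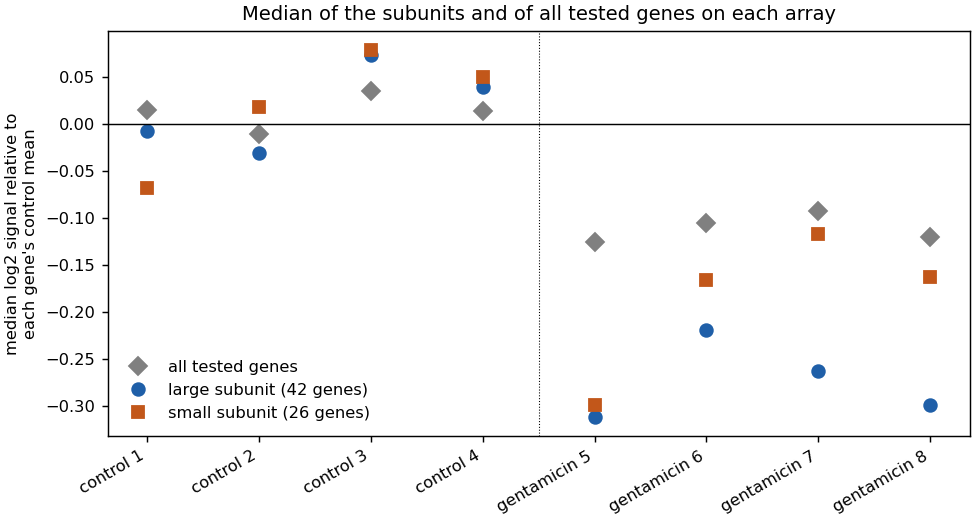
Median log2 signal relative to each gene's control mean, on each of the 8 arrays, for all tested genes (diamonds), the 42 large-subunit genes (circles) and the 26 small-subunit genes (squares). The large subunit lies below all genes on each gentamicin array, by 0.11 to 0.19, and the small subunit is far below only on gentamicin 5.

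How much of this was called depended on the scaling between arrays, because the median of all genes itself moved. With the medians of the tested genes aligned, an alternative chosen after seeing the data, 8 of 42 large-subunit members fell (19.0%) and 2 of 26 small-subunit members (7.69%), against 17.7% of all genes, and none rose, against 23.9%. Quantile normalization gave 9 and 2 members lower (21.4% and 7.69%), against 19.8% of all genes, and none higher, against 18.8%. With the medians of all probe sets aligned, 2 large-subunit members fell and none of the small subunit, against 12.0% of all genes. One member of each subunit, *IMG1* and *MRPS12*, then rose (adjusted p = 0.0382 and 0.0301, limma), against 30.5% of all genes. Aligning medians shifts every gene of an array alike and so cannot change a subunit's median relative to all genes. Quantile normalization took it from -0.17 to -0.15 in the large and from -0.134 to -0.072 in the small subunit. With the scaling as deposited, a threshold of 0.01 left 9 and 2 members lower (21.4% and 7.69%), against 20.2% of all genes. Leaving out the lowest 40% of genes left 16 of 32 and 5 of 20, against 28.4%.

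**Figure D3:**
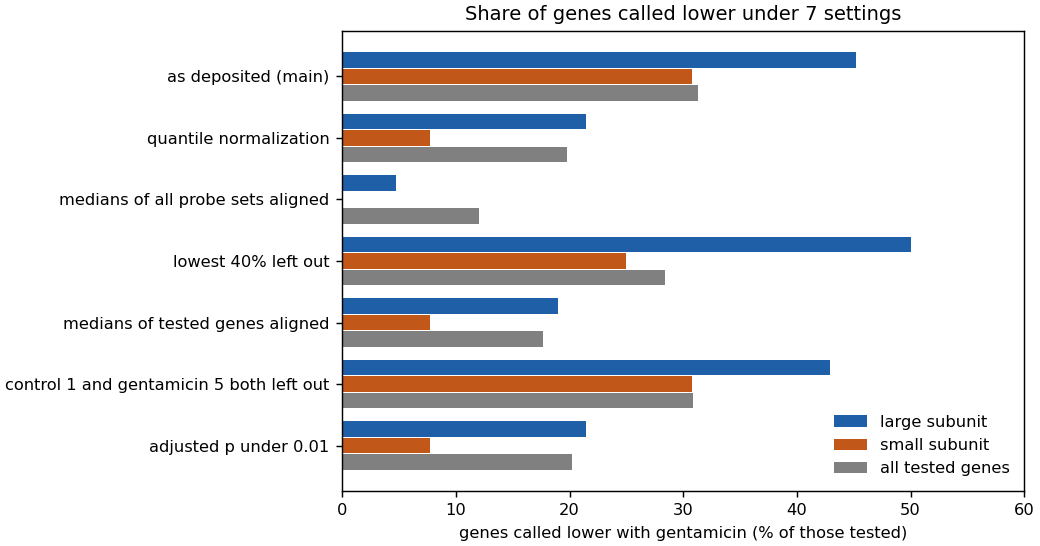
Percentage of tested large-subunit, small-subunit and all genes called lower under 7 settings, which are named on the vertical axis. As deposited, the large subunit stands at 45.2%, the small at 30.8% and all genes at 31.3%, and aligning the medians of the tested genes gives 19.0%, 7.69% and 17.7%.

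In the large subunit, the clearest decreases were those of *MRPL10* and *MRPL13*. *MRPL10*, a homolog of bacterial L15, had signals of 1476, 1361, 1456 and 1401 on the control arrays and 981, 893, 861 and 872 on the gentamicin arrays. The groups stand well apart, and the highest gentamicin value is far under the lowest control. It fell 1.58-fold, by 0.66 ± 0.068 (SE) on the log2 scale (limma adjusted p = 8.29e-05). *MRPL13*, a protein of mitochondrial ribosomes only, gave 1121, 1126, 1112 and 1196 in controls and 834, 865, 703 and 812 with gentamicin. These groups do not overlap either, and it fell 1.42-fold (adjusted p = 0.000878). Of the 27, only these 2 were called lower under every alternative run.

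A second tier of large-subunit members fell 1.28-fold to 1.36-fold with groups that did not overlap. *MRPL36*, of the bacterial L31 family, went from 849 ± 72.7 (SD, n = 4) to 623 ± 18.6 (adjusted p = 0.00161). *MRPL11*, the homolog of L10, which anchors the flexible stalk where elongation factors bind, went from 787 ± 28.0 to 604 ± 36.4 (adjusted p = 0.00225). *RML2*, the homolog of L2 and a neighbour of the peptidyl transferase centre, went from 1056 ± 60.7 to 826 ± 38.0 (adjusted p = 0.00317). All 4 gentamicin arrays were below all 4 controls for each of these. *MRPL39*, of the L33 family and the brightest large-subunit probe set, read 2831, 2783, 2778 and 2987 in controls and 2251, 2117, 2370 and 2171 with gentamicin. Its values are tight in both groups, and it fell 1.28-fold (adjusted p = 0.00137). *MRPL16*, the homolog of L16, and *MRPL35*, a mitochondria-specific protein, fell 1.32-fold and 1.33-fold (adjusted p = 0.00264 and 0.00267). These 6 were called with the medians of the tested genes aligned, but none of them with the medians of all probe sets aligned. Under quantile normalization *MRPL16* and *MRPL35* lost their calls as well (adjusted p = 0.0598 and 0.0998), and the other 4 did not.

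The other called members of the large subunit had weaker support when the medians of the tested genes were aligned. *MRPL23* (homolog of L13), *MRP20* (homolog of L23, at the mouth of the exit tunnel) and *MRX14* (of the L34 family) fell 1.36-fold, 1.32-fold and 1.28-fold without overlap. *MRPL31*, *MRPL32* and *MRPL37* fell 1.26-fold, 1.22-fold and 1.18-fold, also without overlap. *MRPL32* is the protein whose processing by the m-AAA protease is known to precede its assembly into the ribosome. Its gentamicin values of 622, 657, 696 and 779 lie under controls of 843, 802, 845 and 855, with gentamicin 8 close to them. None of these 6 was called with the medians of the tested genes aligned (adjusted p = 0.0618 to 0.273). Under quantile normalization *MRPL23* and *MRX14* kept their calls (limma adjusted p = 0.0302 and 0.0263). There *MRP20*, *MRPL31*, *MRPL32* and *MRPL37* lost theirs.

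For 5 more the groups overlapped although the test called them. *MRPL19*, the homolog of L11, fell 1.37-fold, from 377 ± 51.3 to 277 ± 53.0, with gentamicin 6 at 355 above control 4 at 319. *MRPL1*, the homolog of L1, fell 1.36-fold, *YML6*, the homolog of L4, 1.25-fold, *MRPL28* 1.24-fold and *MRPL51* 1.23-fold. Under quantile normalization only *MRPL51* of these 5 kept its call (limma adjusted p = 0.0489). Each of these 5 calls was lost on leaving out single arrays, at least 2 of the 8 (adjusted p = 0.0514 to 0.105 without such an array), with log2 differences of -0.44 to -0.22. *MRPL19* lost its call without control 2, control 3, gentamicin 5, gentamicin 7 or gentamicin 8, and *MRPL1* without control 2 or gentamicin 8. *YML6* and *MRPL28* lost it without any one of controls 2, 3 and 4 and gentamicin 5, 6 and 8, and *MRPL51* without any one of controls 1, 2 and 4 and gentamicin 6, 7 and 8.

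In the small subunit the largest called decrease was that of *MRP10*, a mitochondria-specific protein of the cysteine-rich CX9C type. Its signals were 1765, 1587, 1875 and 1399 in controls and 1142, 1261, 1197 and 1068 with gentamicin. The lowest control, number 4, lies above the highest gentamicin value. It fell 1.41-fold, by 0.50 ± 0.10 (SE) on the log2 scale (limma adjusted p = 0.00331). *MRP4*, the homolog of S2, went from 787 ± 66.0 to 609 ± 33.5 (adjusted p = 0.00621), and these were the 2 small-subunit members called with the medians of the tested genes aligned. Under quantile normalization *MRP4* lost its call (adjusted p = 0.0778), and the 2 called were *MRP10* and *MRPS16* (adjusted p = 0.0113 and 0.00907). *MRPS16*, of the S16 family and the brightest small-subunit probe set, read 5001, 4377, 5492 and 5108 in controls and 4280, 3772, 4308 and 3819 with gentamicin. Its groups come within a small step of each other between control 2 and gentamicin 7, and it fell 1.23-fold (adjusted p = 0.015).

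The other 5 called small-subunit members did not overlap between groups. *RSM27* fell 1.37-fold, from 283 ± 7.02 to 209 ± 39.2, with gentamicin 7 lowest at 161. *MRPS35* fell 1.29-fold and *RSM28* 1.26-fold, both proteins of the mitochondrial ribosome without a bacterial counterpart. *MRP51*, which is known to act with the leaders of mitochondrial messenger RNAs, fell 1.30-fold, and *MRP13* 1.20-fold. The calls of *MRP51*, *RSM28* and *MRP13* were each lost on leaving out any of 5 single arrays, and that of *RSM27* without gentamicin 8. Control 2 was among those arrays for all 3, with control 3 as well. The rest were control 1, gentamicin 7 and gentamicin 8 for *MRP51*, control 4, gentamicin 5 and gentamicin 6 for *RSM28*, and control 4, gentamicin 7 and gentamicin 8 for *MRP13*.

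**Figure D4:**
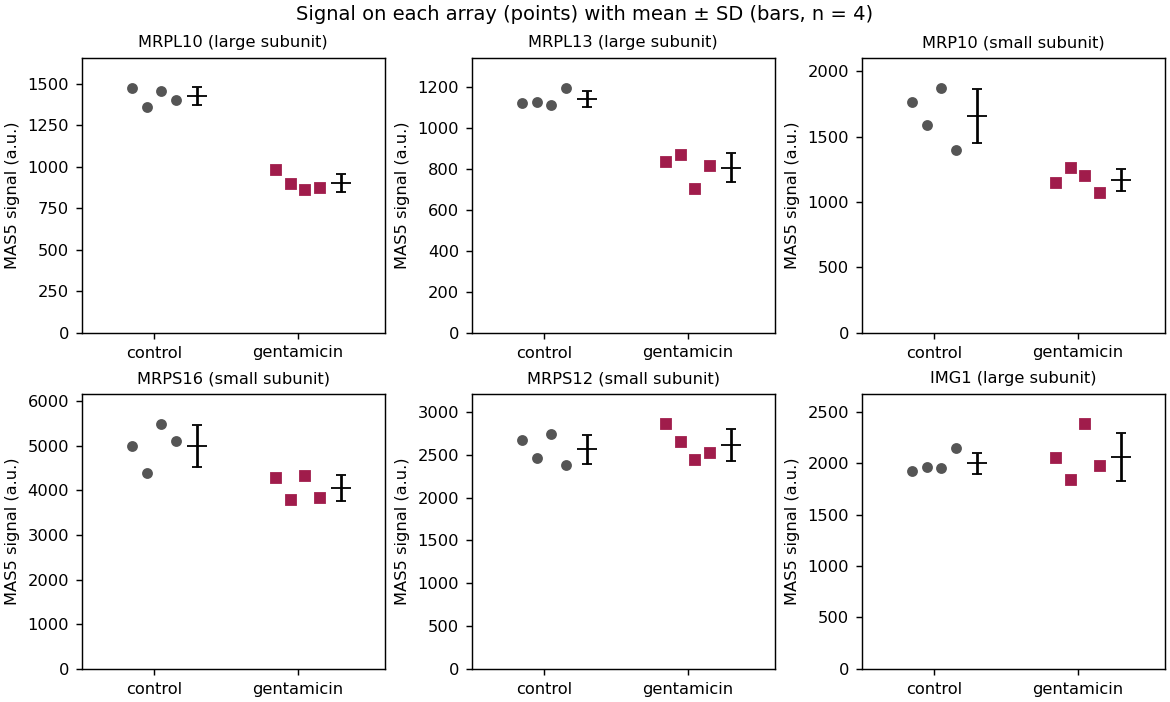
MAS5 signal in arbitrary units on each array (circles control, squares gentamicin) with the mean ± SD of 4 arrays beside them, for 6 members. *MRPL10*, *MRPL13*, *MRP10* and *MRPS16* have gentamicin values below every control, and those of *MRPS12* and *IMG1* overlap the controls.

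A few members stood at or above their control level. *MRPS12*, the homolog of S12, a protein of the decoding site in which bacterial mutations can give resistance to streptomycin, read 2671, 2457, 2744 and 2377 in controls and 2863, 2650, 2437 and 2516 with gentamicin. The groups interleave, with a log2 difference of 0.030 ± 0.075 (SE, adjusted p = 0.77). *IMG1*, of the L19 family and named for its part in keeping the mitochondrial genome, was at 1998 ± 102 in controls and 2059 ± 234 with gentamicin (adjusted p = 0.748), with the highest value, 2384, on gentamicin 7. *RSM19*, the homolog of S19, was at 701 ± 37.7 and 700 ± 49.5 (adjusted p = 0.974). The fits gave no call for these 3 as deposited. Also near 0 were *MRPL22*, the homolog of L22 in the exit tunnel (log2 difference -0.031), and *MRPL38*, the homolog of L14 (-0.042). *MRPL33*, the homolog of L30, and *RSM7*, the homolog of S7, have bright probe sets and were not called, at 2452 ± 480 and 2262 ± 543 (adjusted p = 0.64) and at 3022 ± 184 and 2826 ± 138 (adjusted p = 0.268), controls first.

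Grouped by site in the ribosome, each group held 3 to 5 tested members, too few to set against the 31.3% of all tested genes called lower, and differences between the groups were not tested. Around the peptidyl transferase centre 3 of 5 fell (*RML2*, *MRPL16* and *YML6*), with a median log2 difference of -0.35, while *MRP7*, the homolog of L27, had -0.39 ± 0.20 (SE) and *MRPL9*, the homolog of L3, -0.11. In the stalk 2 of 3 fell, *MRPL11* and *MRPL19*, and *MNP1*, the homolog of L7/L12, went from 711 ± 76.5 to 633 ± 45.1 without a call (adjusted p = 0.194). At the exit of the tunnel 1 of 4 fell, *MRP20*. In the decoding region of the small subunit (*MRPS12*, *MRPS5*, *NAM9*) 0 of 3 and in the head near the P site (*RSM7*, *RSM19*, *MRPS9*, *SWS2*) 0 of 4 were called. Their medians of -0.087 and -0.098 are close to the -0.12 of all genes. At an unadjusted p under 0.05 there was 1 gene of these 7, *SWS2*, the homolog of S13, whose gentamicin values all lay below its controls (819 ± 51.7 against 923 ± 34.8, adjusted p = 0.0725).

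By origin, 16 of 45 tested homologs of bacterial proteins fell (35.6%) and 11 of 23 mitochondria-specific proteins (47.8%), against 31.3% of all tested genes. In the large subunit the shares were 13 of 27 and 6 of 15. In the small subunit they were 3 of 18, with a median log2 difference of -0.17, and 5 of 8, with a median of -0.33. The 3 bacterial-type members of the small subunit that fell were *MRP4*, *MRP51* and *MRPS16*. These shares are for the scaling as deposited, and differences between the origins were not tested. With the medians of the tested genes aligned, *MRP10* was the only mitochondria-specific and *MRP4* the only bacterial-type member of the small subunit called. Under quantile normalization these were *MRP10* and *MRPS16*. Of the 18 bacterial-type members there, 6 were also low on both control 1 and gentamicin 5, as described next, against 1 of the 8 mitochondria-specific ones, and none of these 7 was called. Split by mean signal into 3 groups of like size, 9 of 23, 8 of 22 and 10 of 23 members fell from the dimmest to the brightest, so the calls were not gathered at 1 end of the signal range.

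Some members were low together on control 1 and gentamicin 5, an array of each group. Taking a log2 signal more than 0.3 below the mean of the other 3 arrays of its group, a limit set after seeing the values, 12 of 68 members were low on both, against 297 of 4524 tested genes, or 6.56%. No other pair of a control and a gentamicin array gave more than 1 member or 2.67% of genes. Of these 12, 7 were of the small subunit: *NAM9*, *RSM10*, *RSM26*, *MRPS9*, *MRPS17*, *MRPS18* and *MRP17*. In the large subunit they were *MRP7*, *MRPL7*, *MRPL8*, *MRPL33* and *MRPL49*.

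*NAM9*, the homolog of S4, shows the pattern, with signals of 472 on control 1 against 755 to 901 on the other controls and 267 on gentamicin 5 against 596 to 785. *MRPS18*, the homolog of S11, read 496 on control 1 against 993 to 1014, and 684 on gentamicin 5 against 885 to 968. None of the 12 was called with all arrays, and their median SE was 0.22 against 0.098 for the other tested members. Picking genes with a low value in each group itself gives a larger SE and fewer calls. Of the 1414 tested genes called lower, 1384 were not low on both. These values and the shares that follow thus come in part from the choice. Among the members not low on both, 19 of 37 in the large subunit (51.4%) and 8 of 19 in the small subunit (42.1%) fell, against 32.7% of all tested genes not low on both.

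Leaving out both arrays, an alternative added after seeing the data, gave 18 large-subunit and 8 small-subunit members lower, against 30.9% of all genes, of which 22 were among the 27. Of the 12, 3 were then called lower: *MRP7* (log2 difference -0.36 ± 0.071, SE, limma adjusted p = 0.00459), *MRPL49* (-0.47 ± 0.088, 0.00387) and *MRPL8* (-0.30 ± 0.093, 0.0334). The log2 differences of *NAM9* and *RSM10* went from -0.36 and -0.33 to -0.20 and -0.13. The decoding-region and head groups kept no call, although 2 of their 7 members, *NAM9* and *MRPS9*, were among the 12.

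**Figure D5:**
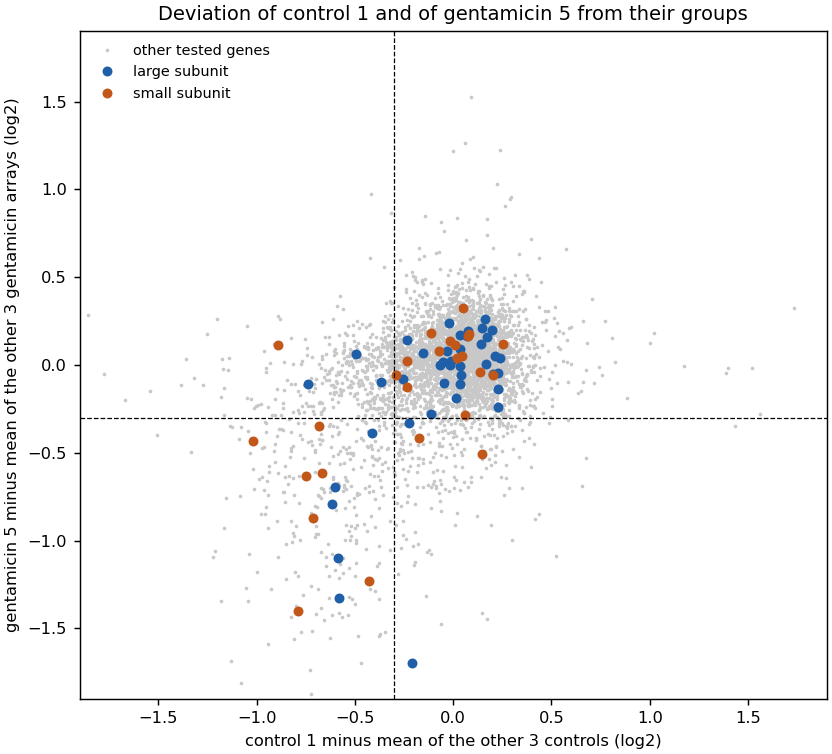
Log2 deviation of control 1 from the mean of the other 3 controls (horizontal) and of gentamicin 5 from the other 3 gentamicin arrays (vertical), for tested genes (grey), large-subunit members (blue) and small-subunit members (orange). Dashed lines mark -0.3, and 12 members lie below and left of both, 7 of them of the small subunit. Points beyond 1.9 log2 units, *MRPL20* among them, are not shown.

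Single arrays decided a further value. *MRPL20* had signals of 589, 542 and 638 on gentamicin 5 to 7 but 1.09 on gentamicin 8, which gave a log2 difference of -2.53 ± 1.84 (SE, adjusted p = 0.287). The value on gentamicin 8 is below the highest signal of the array's mouse control probe sets over all arrays (17.9). With that value replaced by the mean of the other 3, the log2 difference of *MRPL20* was -0.26 (adjusted p = 0.0637), and with array weights in the fit it was -5.29 and was called (adjusted p = 0.047). *MRPL44*, the only member with more than 1 probe set, gave log2 differences of -0.43 for the brighter and -0.45 for the dimmer (107.5 ± 17.8 in controls, 81.8 ± 26.3 with gentamicin), and was not called (adjusted p = 0.0761).

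The 7 members below the signal filter were *MRP35* and *MRPL50* of the large and *MRP21*, *PET123*, *RSM22*, *RSM23* and *RSM25* of the small subunit. They have no test. *PET123* had 251 ± 24.3 in controls and 173 ± 36.3 with gentamicin, and *RSM25* 225 ± 11.2 and 174 ± 22.9. *RSM22*, a methyltransferase-like protein tied to the small subunit, had 146 ± 15.5 and 114 ± 7.12. In these 3 all gentamicin values lay under all controls. The other 4 overlapped: *MRP21* at 165 ± 20.1 and 156 ± 15.9, *MRPL50* at 108 ± 9.18 and 100.4 ± 7.91, *RSM23* at 107 ± 12.0 and 90.0 ± 5.75, and *MRP35* at 50.6 ± 8.62 and 40.5 ± 8.74. *VAR1*, the small-subunit protein encoded in the mitochondrion, read 0.74 to 22.7 over all 8 arrays, in the range of the mouse controls but for the highest values. The labelling started from an oligo-dT primer, and its part in the *VAR1* signal was not tested.

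Other nuclear genes of mitochondrial translation included larger changes than those of the called ribosomal proteins. Of 9 translation factors 5 were tested and 2 fell, against 31.3% of all tested genes. *MEF2*, an elongation-factor-like protein of ribosome recycling, read 402, 434, 373 and 383 in controls and 191, 193, 208 and 196 with gentamicin. Its groups are far apart, and it fell 2.02-fold (limma adjusted p = 2.7e-05). *MEF1*, the mitochondrial elongation factor G, fell 1.35-fold (adjusted p = 0.0097), while *TUF1*, elongation factor Tu, was at 1227 ± 180 and 1000 ± 210 (adjusted p = 0.167).

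Among 9 tested assembly factors of the mitochondrial ribosome, 2 fell (22.2%, against 31.3% of all tested genes) and 7 were not called. *MRH4*, a helicase of large-subunit assembly, went from 381 ± 19.1 to 229 ± 33.9, a fall of 1.67-fold (limma adjusted p = 0.000768). *GEP3*, also called *MTG3*, a GTPase of small-subunit assembly, went from 817 ± 74.2 to 514 ± 47.9, a fall of 1.59-fold (adjusted p = 0.000557). *AFG3* and *YTA12*, the subunits of the m-AAA protease, had log2 differences of -0.18 and -0.17 without a call. The falls of *MEF2*, *MRH4* and *GEP3* were called under all alternatives in which each was tested, and *MEF1* lost its call under the 3 other scalings.

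Of 20 translational activators and ribosome receptors 13 were tested, of which 5 fell and 1 rose, or 38.5% and 7.69%, against 31.3% and 15.5% of all tested genes. *PET494*, an activator of translation of the *COX3* messenger RNA, read 211, 180, 203 and 178 in controls and 364, 478, 368 and 346 with gentamicin. It rose by 1.002 ± 0.12 (SE) on the log2 scale with no overlap (limma adjusted p = 0.000193). *MTF2*, which acts on *COX1* messenger RNA, fell 1.55-fold (adjusted p = 0.00235), and *MBA1*, a receptor that holds the ribosome at the inner membrane, fell 1.32-fold (adjusted p = 0.00886). *CBP1* and *CBP3*, which serve cytochrome b, fell 1.30-fold and 1.23-fold (adjusted p = 0.0149 and 0.0194). The fifth, *MSS51*, which acts on *COX1*, fell 1.26-fold (limma adjusted p = 0.0222), and its call was not followed under the alternatives. It read 2361 on control 4, against 1760 to 1825 on the other controls. *MBA1*, *CBP1* and *CBP3* lost their calls under the 3 other scalings, *CBP3* also without control 2 and without gentamicin 8. *PET494* and *MTF2* kept theirs under all alternatives in which each was tested. The median log2 differences of the 3 lists were -0.34, -0.17 and -0.14, beside the -0.12 of all tested genes.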

How the data were processed

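The authors deposited 1 intensity per probe set and array, which the submitters' processing notes tie to MAS5 (version and settings not given in the sources used here). The mean of each array without its extreme 2% was 1001 on every array, so the deposited intensities had been scaled. The table holds 9335 probe sets, 60 of them array controls. Of the others, 6504 have 1 gene in the platform annotation, 328 several and 2443 none listed. Current symbols came from the R64 table by gene identifier, and each of the 6504 had an entry. Each gene was taken from its brightest probe set, by mean log2 signal. Signals were taken to log2 with no offset, and the lowest 20% of 5656 genes by mean were left out, which left 4524.

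Gentamicin was tested against control with limma 3.58.1 in R 4.3.3 (lmFit, eBayes with a variance trend, Benjamini-Hochberg adjustment). With simulated signals for 4524 genes of this comparison, 73% of genes changed 1.5-fold and 92% of those changed 2-fold were called, with 7 false calls among 172. The noise was drawn for each gene separately, 100 genes were changed by each fold, up and down alike, and arrays were not shifted. The 7 of 172 is thus not an error rate for the calls above, which depend on the scaling. The number of arrays limits the precision.

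Members and lists were chosen with earlier results of these data known. Named were all called members, members above 0, the 3 brightest and the 3 uncalled members nearest 0 of each subunit, members below the filter or with several probe sets, and up to 4 called genes a list and direction. Members named with their site group, the genes of the low-array pattern, *MRPL20*, *MRPL49*, *MSS51*, *TUF1*, *AFG3* and *YTA12* were named after their values were seen. Subunit, family and site of each member are from general knowledge, and the families were checked against the gene table. Alternatives were quantile normalization, aligned medians, an offset of 8.17 signal units, no filter or a 40% filter, array weights, a fit without the variance trend, a gene's median over its probe sets, replaced far-low values, single arrays left out and a threshold of 0.01. Aligned tested-gene medians and leaving out control 1 with gentamicin 5 were added after seeing the data. No sequences are shown.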

Additional observations from a re-analysis of the deposited data

Results flagged for a closer look

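In 110 groups of 4 arrays, each 1 gene in 1 group, 7 had a value that stood apart from the other 3 by Dixon's criterion. The genes were those named by the rules given above, with *VAR1*, *MRPL20* and *MRPL49*. Other genes named after their values were seen were not examined, *MRP7*, *MRPS9*, *RSM10*, *MRP17* and *MSS51* among them. Of these, *MRP7* read 496 on control 1, against 746 to 759 on the other controls. Chance marks about 1 in 20 groups. Those of *MRPL20* and *MRPL49* belong to genes named after their values were seen, so the count cannot be set against chance. *MRPL20* read 1.09 on gentamicin 8, against 542 to 638 on the other gentamicin arrays. *MRPL49* read 193 on gentamicin 5, against 405 to 427, and *MRPS18* 496 on control 1, against 993 to 1014. Both belong to the 12 members that were low on control 1 and gentamicin 5. *MRP51* read 262 on gentamicin 8, against 334 to 348. Values above their group were those of *MRPL13* (1196 on control 4, others 1112 to 1126), *IMG1* (2150 on control 4, others 1928 to 1959) and *PET494* (478 on gentamicin 6, others 346 to 368). *MRPL13* and *PET494* were called under all alternatives in which each was tested.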

How the results depend on the processing

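No paired analysis was possible because the groups share no replicate numbers. Quantile normalization gave 9 large-subunit and 2 small-subunit members lower, with median log2 differences of -0.17 and -0.086. Aligned medians of all probe sets gave 2 and 0 lower and 1 and 1 higher, with medians of -0.059 and -0.020. Aligned medians of the tested genes gave 8 and 2 lower, with medians of -0.15 and -0.11. Of all tested genes, these scalings in turn called 19.8%, 12.0% and 17.7% lower and 18.8%, 30.5% and 23.9% higher. The median over all tested genes was -0.12 as deposited, and -0.015, 0.12 and 0.022 under these scalings in turn. With the lowest 40% of genes left out, 5 of 20 small-subunit members were lower, against 28.4% of all genes, on fewer genes tested. At an adjusted p under 0.01, the stricter threshold itself left 9 and 2 (21.4% and 7.69%), against 20.2%. Leaving out 1 array gave 14 to 20 large-subunit and 5 to 8 small-subunit members lower and 0 higher in either, with medians of -0.31 to -0.24 and -0.29 to -0.19. Of all tested genes, these fits called 26.7% to 30.1% lower and 13.3% to 15.3% higher. The small-subunit count was 5 (19.2%) without control 2 and without gentamicin 8, against 26.9% and 26.7% of all genes. The large-subunit share was 33.3% in both of these fits. The large-subunit median of -0.24 was that without gentamicin 5. The other alternatives kept both lower counts within 1.5 times and both medians within the spread between arrays. Values under alternatives were also counted over the tested genes named by rule, with *MRPL20* and *MRPL49*. Of these values 781 kept direction or call, 138 lost a call, 7 gained one and 0 called values reversed. The 7 gained were of *IMG1*, *MRPS12*, *MRPL20*, *MRPL44* and *MRPL49*. No detection calls were used, so dim probe sets are limited only by the signal filter.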

Other observations

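The members lie on 14 chromosomes, and by the R64 gene order only 2 pairs are direct neighbours among protein-coding genes. *MRX14* and *MRPL1*, both of the large subunit on chromosome IV, had log2 differences of -0.36 and -0.44, and both were called lower. *MRPS12* and *RSM19*, both of the small subunit on chromosome XIV, had 0.030 and -0.004, and neither was called.

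Genes low on both control 1 and gentamicin 5 tended to have probe sets with consecutive numbers on the array. Of 368 tested genes whose probe set number is next to that of such a gene, 170 were low on both as well, or 46.2%, against 127 of 4156 others, or 3.06%. These shares describe the probe sets of these arrays, and what the numbering reflects was not tested.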
